A study of Caenorhabditis elegans with 14 samples.

Results

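The genes described here are 38 genes of Caenorhabditis elegans that encode parts of the presynaptic terminal: the active zone, the machinery that primes, fuses and recovers synaptic vesicles, the calcium channels that trigger release, dense core vesicle factors and the motors that supply the terminal. They were listed by name for their known function, with no threshold on a measured value, although earlier results of these data were known when the list was made. Of the 38, 37 had a probe set on the array that the platform annotation gives to that gene alone, out of 17118 such genes in all. The exception was nsf-1, which encodes the ATPase that takes SNARE complexes apart. Its probe set is annotated to more than 1 gene entry, so no value is given for it.

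RNA of whole worms was hybridised to 14 Affymetrix arrays in 4 groups. First-stage larvae (L1) gave 4 arrays of daf-19;daf-12 mutants and 4 of daf-12 controls. Adults gave 3 arrays of each genotype. Every animal thus carried a daf-12 mutation, including the controls that the labels call DAF(+) or wild type for DAF-19, and the daf-19 allele is not named. The sample titles say young adult, whereas the protocol gives a harvest 50 hours past the L4 stage. The labels call the replicates biological and say nothing of shared cultures or hybridisation days, so p-values measure the spread between these samples.

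A presynaptic terminal loads transmitter into synaptic vesicles, docks them at the active zone and primes them. Calcium that enters through voltage-gated channels acts on synaptotagmin, and SNARE proteins on the vesicle and the plasma membrane then pull the membranes together. Endocytosis recovers the vesicle membrane, and kinesins bring new vesicle precursors from the cell body. The worm's set of these genes was found largely through uncoordinated mutants, hence the many unc names. DAF-19 is the worm's RFX transcription factor, known for switching on genes of sensory cilia through X-box motifs. Earlier work on daf-19 mutants described lower levels of some synaptic vesicle proteins in adults, and the series title speaks of a role in non-ciliated neurons as well as in ciliated ones. The arrays measured RNA, not protein.

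The transcript of daf-19 was lower in the mutants. Its dimmer probe set ranged from 5.77 to 6.08 on the L1 mutant arrays and from 6.42 to 6.89 on the L1 control arrays (log2 signal), with limma adjusted p = 0.00281. In adults it ranged from 6.65 to 6.76 in mutants and from 7.24 to 7.42 in controls (limma adjusted p = 0.0163). The brighter probe set was also lower on every mutant array, with limma adjusted p = 0.0125 at L1 and 0.105 in adults. The 10 general neuron markers had a mean log2 signal between 6.82 and 7.08 on L1 mutant arrays and between 6.96 and 7.03 on L1 control arrays. In adults the mean lay between 6.79 and 6.89 in mutants and between 6.65 and 6.98 in controls, and 1 of the 10 was below the array's lower quartile on every array of each group. None of the neuron, muscle, pharynx, yolk, germline or glia markers measured passed the test between genotypes at either stage. In the other marker lists the intestine marker cpr-6 (1.15) and the sperm marker spe-4 (0.53) were higher in L1 mutants and the epidermis marker grd-3 (0.77) in adult mutants, as log2 differences.

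At L1, 1 of the 37 synaptic genes was higher in the mutants and 0 were lower, at an adjusted p below 0.05 over all 22548 probe sets tested. Over all 17118 genes, 0.386% were higher and 0.83% were lower by the same rule, so the share of synaptic genes called rests on a single gene. That gene was dyn-1, which encodes dynamin, the GTPase that pinches off endocytic vesicles. The median log2 difference of the 37 genes was -0.022, beside 0.005 for all genes, with 15 above 0 and 22 below. At an unadjusted p below 0.05, 1 was higher and 2 were lower, beside 4.29% and 6.23% of all genes. In RNA of whole worms, fewer cells of a type and less RNA per cell cannot be told apart.

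The dyn-1 signal was 7.47, 7.85, 7.67 and 7.50 on the L1 mutant arrays and 6.94, 7.20, 7.24 and 6.73 on the L1 control arrays (log2). All mutant arrays lay above all control arrays. The means were 7.62 ± 0.18 (SD, n = 4) and 7.03 ± 0.24, a log2 difference of 0.60 (SE 0.12, 1.51-fold, limma adjusted p = 0.0192). In the same-numbered pairs of arrays the mutant was higher by 0.53, 0.65, 0.43 and 0.77, which is every pair. A second probe set that the annotation gives to dyn-1 did not show this difference. It read 3.72, 4.03, 3.88 and 3.92 in L1 mutants and 3.71, 4.00, 3.82 and 3.67 in L1 controls, a log2 difference of 0.09 (limma adjusted p = 0.936). The mutant and control arrays overlapped there, and both dyn-1 probe sets bear the _s_at suffix, which marks probes that can match more than 1 transcript. The second probe set was at the dim end of the L1 arrays, whose lower quartile was 3.71 to 3.76. A difference in RNA could be missed at that level.

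The dyn-1 call was lost in limma without L1 mutant replicate 3 (log2 difference 0.58, adjusted p = 0.0619) and without L1 control replicate 4 (0.50, adjusted p = 0.0559). It was also lost when the L1 arrays were fitted alone (0.60, adjusted p = 0.134). With the same-numbered arrays as a replicate block the difference was 0.60 and passed the test (limma adjusted p = 0.00435). The difference between the 3′ and 5′ control probes of Gapdh, a sign of RNA or labelling quality, was 3.83 to 4.12 log2 units in L1 mutants. In L1 controls it was 3.74, 3.16, 3.76 and 3.83, so the ranges met at 3.83, and no test compared the genotypes. With this difference between the Gapdh probes, centred within each stage, as a covariate the dyn-1 difference was 0.66 with adjusted p = 0.0969 in limma.

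**Figure D1:**
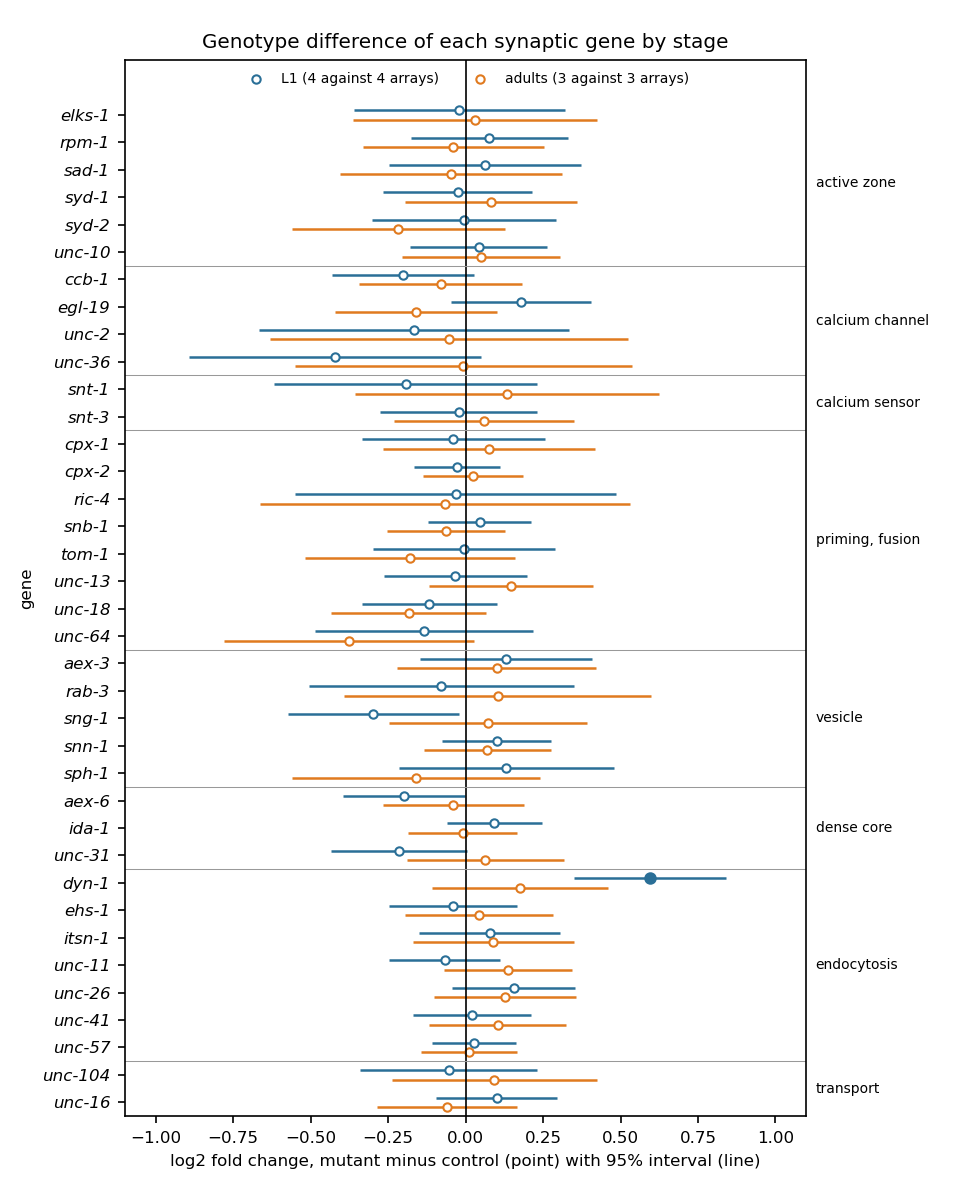
Log2 difference between mutant and control (x axis) for each of the 37 synaptic genes (y axis, grouped by role), with points for the estimate and lines for its 95% interval, at L1 (4 against 4 arrays) and in adults (3 against 3). The single filled point, dyn-1 at L1, is the only estimate with an adjusted p below 0.05, and no line leaves the range from -1 to 1.

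None of the other 6 genes of vesicle recovery passed the test at L1. The unc-26 gene, which encodes the lipid phosphatase synaptojanin, read 6.07, 5.94, 6.03 and 5.93 in mutants and 5.80, 5.88, 5.86 and 5.81 in controls. Its arrays did not overlap and its log2 difference was 0.16 (limma adjusted p = 0.673). The endophilin gene unc-57, the stonin gene unc-41, the intersectin gene itsn-1, the EPS15 gene ehs-1 and the AP180 gene unc-11 lay between -0.07 and 0.08. Arrays that did not overlap were found for 2 of the 37 genes with the mutants higher, dyn-1 and unc-26, and for 1 with the mutants lower, aex-6. The shares over all genes were 1.9% and 2.66%. The mutant was higher in all 4 same-numbered pairs for dyn-1 and unc-26 and lower in all 4 for aex-6 and ccb-1, beside 8.45% and 9.19% of all genes.

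Among dense core vesicle genes, aex-6, which encodes the worm's RAB27 GTPase, read 6.98, 6.88, 6.93 and 7.08 in L1 mutants and 7.23, 7.14, 7.17 and 7.13 in L1 controls. Every mutant array was below every control array, yet the log2 difference of -0.20 (SE 0.09) had adjusted p = 0.496 in limma. A second aex-6 probe set gave 0.03. The unc-31 gene encodes CAPS, a factor for dense core vesicle release, and read 4.07, 4.29, 4.00 and 4.20 in mutants and 4.62, 4.27, 4.30 and 4.23 in controls. The groups overlapped and the control range was set by replicate 1 (log2 difference -0.22, limma adjusted p = 0.517). The third gene, ida-1, which encodes an IA-2 type membrane protein of these vesicles, differed by 0.09.

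Among genes of the vesicle itself, sng-1, which encodes synaptogyrin, had the smallest p after dyn-1. It read 5.49, 5.41, 5.84 and 6.01 in L1 mutants and 6.25, 5.91, 5.78 and 6.00 in L1 controls. Mutant replicates 1 and 2 were below all controls and the other two were not (log2 difference -0.30, SE 0.13, limma adjusted p = 0.457). The genes for RAB-3 (rab-3), its exchange factor (aex-3), synapsin (snn-1) and synaptophysin (sph-1) differed by -0.08 to 0.13.

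The largest negative estimate at L1 came from a single array. The unc-36 gene, which encodes the alpha2-delta subunit of calcium channels, read 7.58, 6.26, 7.33 and 7.60 in mutants and 7.58, 7.46, 7.66 and 7.76 in controls, so replicate 2 of the mutants stood more than 1 log2 unit below the others. Its log2 difference was -0.42 (SE 0.22, limma adjusted p = 0.591) and -0.11 without that array. Replicate 2 was also low for snt-1, which encodes synaptotagmin, the main calcium sensor of release: mutants read 8.82, 7.78, 8.70 and 8.89 and controls 8.82, 8.68, 8.56 and 8.90. The snt-1 difference of -0.19 turned to 0.06 without replicate 2. The other synaptotagmin gene, snt-3, differed by -0.02. That array was the lowest of the 4 L1 mutant arrays for 19 of the 37 synaptic genes, 51.4%, whereas it was lowest for 25.7% of all genes. Other arrays stood low in the same way: L1 control replicate 4 was the lowest of its group for 14 of the 37 genes (37.8%, beside 23.8% of all genes), and adult control replicate 1 for 20 (54.1%, beside 32.6%). Without adult control replicate 1 the count of synaptic genes called in adults was still 0.

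The remaining calcium channel genes at L1 were the L-type alpha1 gene egl-19 (0.18), the presynaptic alpha1 gene unc-2 (-0.17) and the beta subunit gene ccb-1 (-0.20), all as log2 differences with adjusted p of at least 0.599 in limma. For egl-19 the mutants read 8.96, 8.79, 9.01 and 9.02 and the controls 9.05, 8.71, 8.76 and 8.54, so the groups overlapped through control replicate 1. For the active zone the 6 genes lay between -0.03 and 0.08: the RIM gene unc-10, the ELKS gene elks-1, the liprin-alpha gene syd-2, the assembly genes syd-1 and sad-1, and rpm-1, whose ubiquitin ligase restrains presynaptic growth. The 8 priming and fusion genes lay between -0.14 and 0.04, with the syntaxin gene unc-64 lowest and the synaptobrevin gene snb-1 highest. The others were the priming factor gene unc-13, the syntaxin chaperone gene unc-18, the SNAP-25 gene ric-4, the complexin genes cpx-1 and cpx-2, and tom-1, for tomosyn, an inhibitor of priming. Of the transport genes, unc-104, the kinesin that carries synaptic vesicle precursors, differed by -0.06 and unc-16, a motor adaptor of the JIP family, by 0.10.

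**Figure D2:**
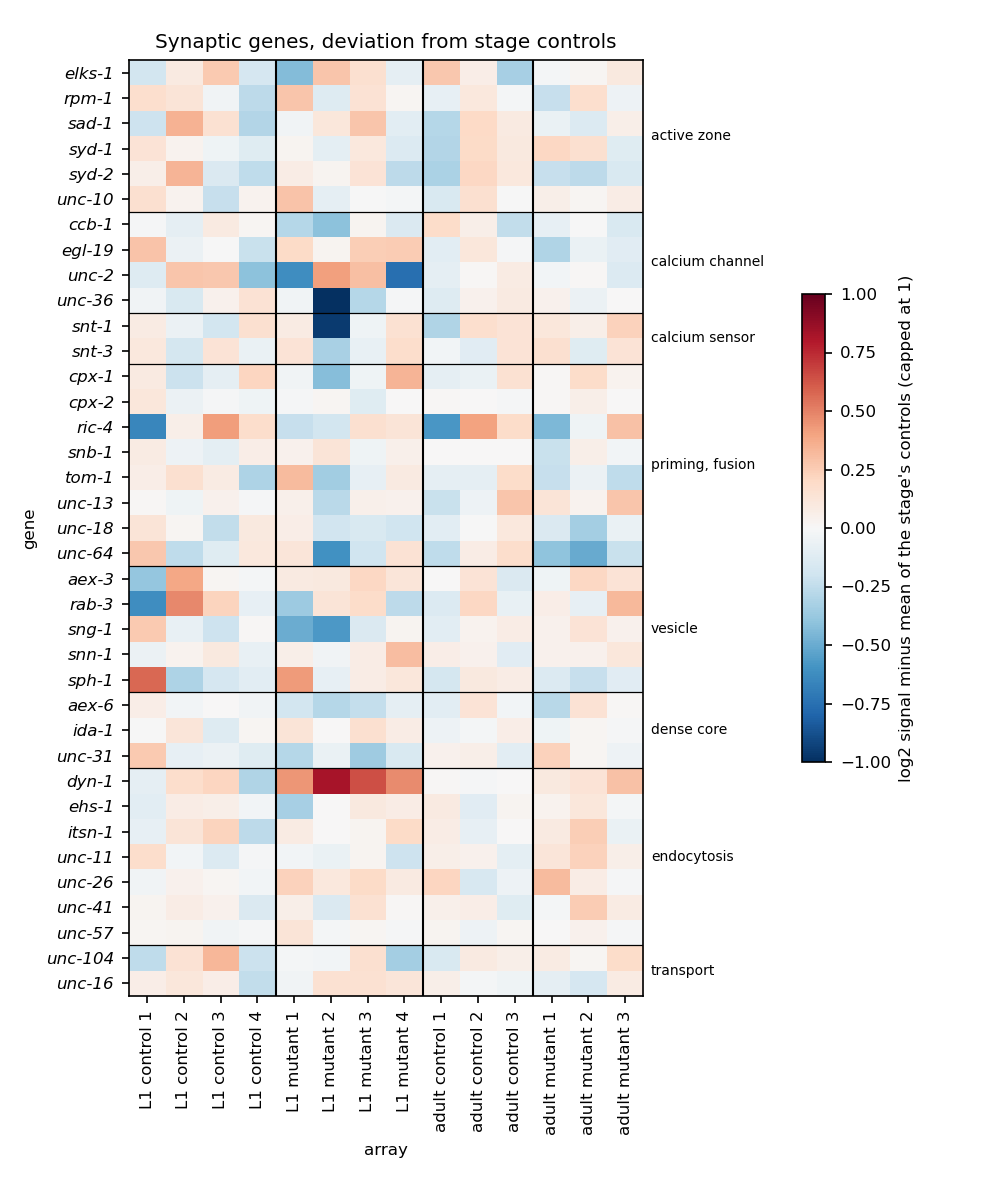
Log2 signal of each synaptic gene (rows, grouped by role) on each of the 14 arrays (columns) minus the mean of the control arrays of the same stage, with colour capped at 1 log2 unit. The dyn-1 row is red on all 4 L1 mutant arrays, and the dark blue cells of unc-36 and snt-1 are both on L1 mutant replicate 2.

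In adults 0 of the 37 synaptic genes passed the test in limma, and 0 reached an unadjusted p below 0.05, which 3.16% of all genes did with the mutants higher and 4.93% with the mutants lower. Over all genes at the adjusted threshold, 0.368% were higher and 0.695% were lower. The median log2 difference was 0.03, beside 0.027 for all genes. The arrays did not overlap for 1 gene with the mutants higher, dyn-1, and for 0 with the mutants lower, beside 7.9% and 5.84% of all genes.

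The smallest p in adults belonged to unc-64, the gene for syntaxin, the plasma membrane SNARE. It read 7.51, 7.41 and 7.69 in mutants and 7.66, 7.99 and 8.09 in controls. The highest mutant array lay just above the lowest control array, and the log2 difference was -0.38 (SE 0.19, limma adjusted p = 0.722). With array weights the difference was -0.45 and passed the test (adjusted p = 0.026, limma). Its binding partner unc-18, the Munc18 gene, read 6.89, 6.69 and 6.97 in mutants and 6.93, 7.03 and 7.14 in controls, with overlapping groups and a difference of -0.18 (limma adjusted p = 0.923). The SNAP-25 gene ric-4 and the synaptobrevin gene snb-1 differed by -0.07 and -0.06.

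The active zone gene syd-2 read 5.14, 5.11 and 5.22 in adult mutants and 5.06, 5.58 and 5.48 in adult controls. Control replicate 1 lay below all mutants while the other two lay above them, and the difference of -0.22 had adjusted p = 0.982 in limma. The 7 endocytosis genes had estimates from 0.01 to 0.18, all above 0, beside 10056 of all 17118 genes. In the list of other endocytosis genes 4 estimates were above 0 and 7 below. Among the 7 synaptic genes of this role, dyn-1 read 7.05, 7.09 and 7.24 in mutants and 6.96, 6.94 and 6.95 in controls (0.18, limma adjusted p = 0.99). The unc-11 gene, for the AP180 clathrin adaptor, read 7.06, 7.17 and 7.0 in mutants and 7.0, 6.98 and 6.84 in controls, where the groups met at 7.0. The 4 calcium channel genes had estimates from -0.16 to -0.01, all below 0, beside 6872 of all 17118 genes. The lowest was egl-19, at 5.52, 5.76 and 5.71 in mutants against 5.72, 5.94 and 5.81 in controls. The 5 vesicle genes ran from -0.16 to 0.10, the 3 dense core genes from -0.04 to 0.06, the 2 synaptotagmin genes from 0.06 to 0.13 and the 2 transport genes from -0.06 to 0.09. None of these passed the test. For unc-16 the adult mutants read 7.28, 7.20 and 7.45 and the controls 7.43, 7.35 and 7.33, with overlapping groups.

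**Figure D3:**
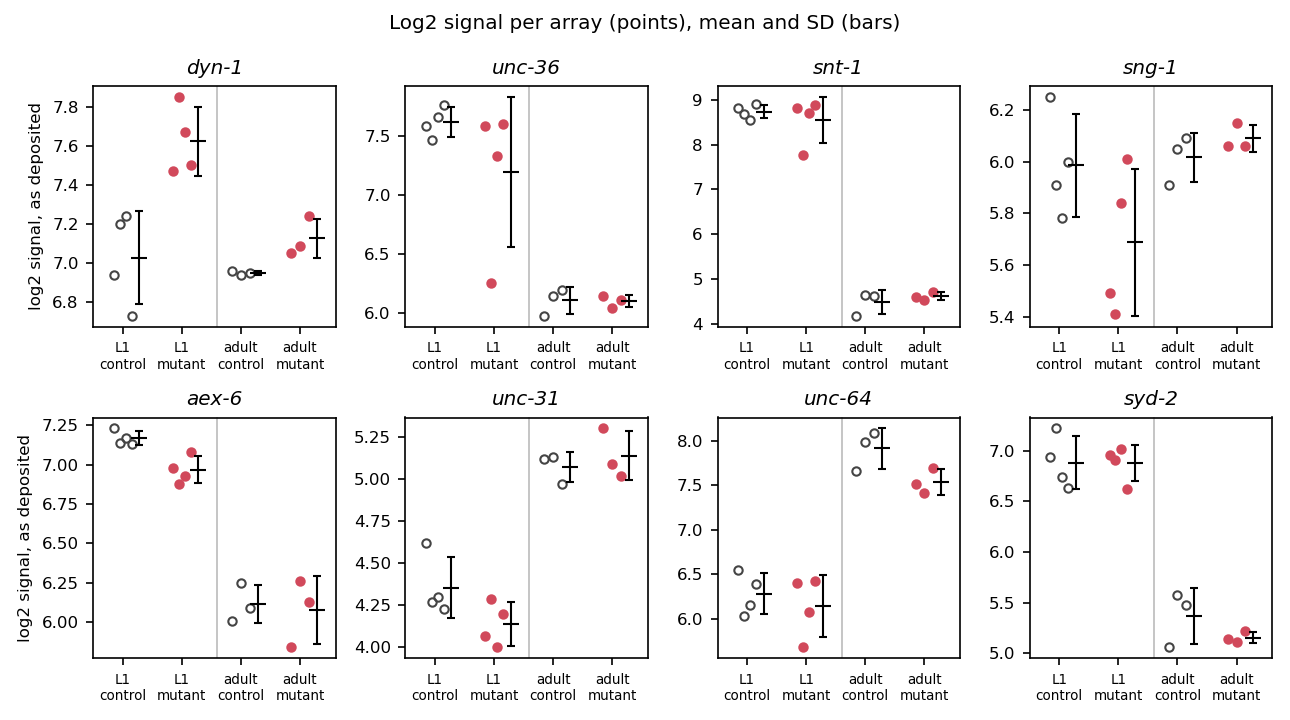
Log2 signal as deposited (y axis, own scale in each panel) of 8 synaptic genes on every array, with open points for controls, filled points for mutants, and a bar for the mean and SD of each group of 4 L1 or 3 adult arrays. The dyn-1 groups separate at L1, the unc-36 and snt-1 means are pulled down by 1 mutant array at 6.26 and 7.78, and the unc-64 groups overlap in adults. The deposited array medians differ between the stages, so heights are to be compared within a stage.

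Whether the genotype difference itself changed from L1 to adults was tested as an interaction, and 0 of the 37 genes passed it in limma, beside 0.976% of all genes. At an unadjusted p below 0.05 there was 1, beside 9.41% of all genes. It was dyn-1, whose adult difference was lower than its L1 difference by a log2 value of -0.42 (adjusted p = 0.478). The next was egl-19 at -0.34 (adjusted p = 0.568). The intervals bound what could have been missed in the signal of 1 probe set per gene, each gene taken singly. They cannot bound a loss of RNA where the signal was already at the dim end of the array. That holds at least for cpx-2 at both stages and for aex-3, snt-1 and syd-1 in adults. At L1 the signals of unc-31 (4.00 to 4.62) and snt-3 (4.10 to 4.60) were also low, not far above the arrays' lower quartile of 3.71 to 3.76. All 37 genes had 95% intervals within 1 log2 unit of 0 at L1, and all 37 in adults. For 30 genes at L1 and 28 in adults the interval lay within 0.5. The outermost bounds were -0.89 for unc-36 and 0.84 for dyn-1 at L1, and -0.78 for unc-64 and 0.62 for snt-1 in adults. The interaction was bounded less closely, with 36 of 37 intervals within 1, 18 within 0.5 and an upper bound of 1.14 for unc-36.

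Other genes of the same pathways, in 5 lists of 82 measured genes, gave 0 calls between genotypes at L1, in adults or in the interaction in limma. At an unadjusted p below 0.05 there were 4 higher and 3 lower at L1, beside 4.29% and 6.23% of all genes. In adults there were 0 higher and 6 lower, beside 3.16% and 4.93%. The medians of the lists ran from -0.092 to 0.062 at L1 and from -0.053 to 0.007 in the adult comparison. The gene nearest to the threshold was hid-1, which acts in dense core vesicle sorting, with 0.21 at L1, -0.40 in adults and an interaction of -0.61 (limma adjusted p = 0.0566). Next came unc-68, the ryanodine receptor gene, at -0.42 in adults (limma adjusted p = 0.0927), and unc-116, the kinesin-1 heavy chain gene, at 0.32 at L1 (limma adjusted p = 0.123). In the presynaptic list the smallest p belonged to arl-8 at L1 (0.21) and to the neurabin gene nab-1 in adults (-0.38). In the endocytosis list they were rab-11.1 at L1 (0.17) and dpy-23 in adults (-0.23), in the transport list klc-2 in adults (-0.22), and in the channel list unc-80 at L1 (-0.31). All of these had an adjusted p above 0.05.

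Most synaptic genes had a lower signal in adults than at L1. After all 14 arrays were brought to a common distribution, 30 of the 37 genes were lower in adult than in L1 controls, 2 were higher and 5 did not pass the test. Over all genes 40.3% were lower and 34.5% were higher. The median log2 difference was -2.74 for the 37 genes and -0.059 for all genes. In the mutants the counts were also 30 lower and 2 higher, with 40.3% and 34.5% of all genes, and the median was -2.64. Each gene's probe set was chosen by its mean over the same 14 arrays, 8 of them L1. That choice can favour a probe set bright at L1, and so a fall, for all genes too. With the probe set brightest in adults, 25 synaptic genes were lower and 6 were higher in controls. A share over all genes was not computed for that choice. The deposited array medians differed between the stages, and how the arrays were scaled is unknown, so the position of 0 depends on the scaling. The deposited values gave 23 lower and 10 higher in controls, beside 15.8% and 74% of all genes, whose median was 0.848. Centring each array on its median gave 30 lower and 6 higher, beside 54.2% and 31.8% of all genes, whose median was -0.371. Relative to all genes the synaptic median was lower by a log2 value of -2.68, -2.04 and -2.04 on the common, deposited and centred scales.

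The fall in adults was found for 23 of the 37 genes under all 3 scalings, beside 15.8% of all genes, and a rise for 2, beside 28.3%. All 6 active zone genes, all 4 calcium channel genes and both transport genes were among the 23. These counts use the brightest probe set of each gene. On the common scale another own probe set gave 0.10 for elks-1, -0.21 for syd-2, -0.12 for unc-10 and 0.36 for unc-16. The genes lower in every own probe set are named further below. The active zone gene syd-1, a RhoGAP-domain protein of presynaptic assembly, read 9.95, 9.80, 9.77 and 9.69 in L1 controls and 3.95, 4.36 and 4.25 in adult controls on the common scale. That is a log2 difference of -5.62 (SE 0.11, limma adjusted p = 2.07e-15), and no adult array came near an L1 array. The kinase gene sad-1 read 9.71, 10.12, 10.01 and 9.61 at L1 and 4.73, 5.10 and 4.97 in adults.

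Genes of the vesicle cycle were also among the largest falls. The snt-1 signal was 9.52, 9.38, 9.30 and 9.58 in L1 controls and 3.78, 4.18 and 4.14 in adult controls (log2 difference -5.42, SE 0.19, limma adjusted p = 1.11e-12). The stonin gene unc-41 went from 10.44, 10.43, 10.44 and 10.29 to 5.21, 5.17 and 4.98 (-5.28, SE 0.09, limma adjusted p = 1.14e-15). For rab-3, the vesicle GTPase gene, the values were 9.85, 10.76, 10.55 and 10.31 at L1 and 5.37, 5.59 and 5.32 in adults (-4.94, SE 0.18, limma adjusted p = 1.52e-12). In these genes too every adult array lay far below every L1 array. In the mutants the same differences were -5.55 for syd-1, -5.03 for sad-1, -5.17 for snt-1, -5.20 for unc-41 and -4.75 for rab-3. In the deposited values the lower quartile of the adult control arrays was 4.53 to 4.56. The snt-1 and syd-1 signals were below it on 1 of these 3 arrays and at most 0.12 and 0.33 above it on the others, so their adult levels were at the dim end of the array and the size of their fall is less certain than its direction. The signals of sad-1, unc-41 and rab-3 were at least 0.75 above it.

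Endocytosis genes departed from this pattern, with 4 lower and 2 higher of 7 on the common scale and a median of -0.33, although no test compared the roles. The rises were itsn-1, for the scaffold intersectin, from 5.38, 5.66, 5.76 and 5.18 to 6.70, 6.53 and 6.58 (1.11, SE 0.13, limma adjusted p = 1.02e-06), and unc-57, for endophilin, from 8.55, 8.55, 8.51 and 8.51 to 9.14, 9.12 and 9.22 (0.63, SE 0.07, limma adjusted p = 6.92e-07). Both rose under all 3 scalings. Of the other roles, 6 of 8 priming and fusion genes and 4 of 5 vesicle genes fell on the common scale. So did 3 of 3 dense core genes and 1 of 2 calcium sensors, beside 40.3% of all genes. Among the 3 dense core genes only aex-6 fell under all 3 scalings, and ida-1 differed by -0.01 on the deposited values. For unc-31, unc-11, ehs-1 and cpx-2 the direction turned with the scaling. The complexin gene cpx-2 was below the array's lower quartile on every array, as was aex-3 on every adult array.

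Marker lists moved with the stage at the same time. On the common scale in controls, 13 of 13 germline and oocyte markers were higher in adults with a median log2 difference of 6.39, and 5 of 5 yolk markers with 9.03. Muscle markers were lower for 11 of 12 (median -2.69) and pharynx markers for 7 of 8 (-4.22). Of the 10 general neuron markers, 6 were lower and 3 were higher, with a median of -1.65. Adults have a full germline and L1 larvae do not, and the part of body composition in the falls of the synaptic genes was not tested. Of the other synaptic pathway genes 53 of 82 were lower and 18 were higher. The medians of their 5 lists ran from -2.92 to -0.061. In the list of other presynaptic and release genes 17 of 30 were lower and 8 were higher, with a median of -0.346. Beside these lists and the marker lists, 40.3% of all genes were lower and 34.5% were higher.

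Probe sets of the same gene often gave different stage changes. Of the 23 synaptic genes with more than 1 probe set of their own, the brightest had the lowest stage difference in 19, beside 2164 of 2981 genes on the whole array. In 5 of the 23, unc-26, unc-11, snb-1, aex-3 and dyn-1, probe sets of the same gene passed the test in opposite directions, as they did in 894 of the 2981. The dyn-1 probe set that differed between genotypes gave -1.81 from L1 to adults in controls and the dimmer gave 1.82. The snb-1 probe sets gave -1.70 and 0.98, and for rab-3 they gave -4.94 and -0.95. In controls 12 of the 37 genes were lower in every own probe set under all 3 scalings, beside 11.5% of all genes. These were unc-13, unc-104, unc-41, snt-1, syd-1, sad-1, rpm-1 and egl-19, with several probe sets each, and unc-36, cpx-1, snn-1 and ccb-1, with 1 each. In mutants the count was 11, without unc-104, beside 10.8% of all genes.

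The array's quality probes differed by stage as well. The 3′ signal of Gapdh exceeded its 5′ signal by 3.16 to 4.12 log2 units on the L1 arrays and by -0.54 to -0.36 on the adult arrays. For actin the difference was 2.44 to 3.06 at L1 and 0.18 to 0.28 in adults. L1 and adult arrays did not overlap in either, so this measure and the stage cannot be told apart. The fit with the Gapdh covariate gave 30 lower and 2 higher synaptic genes in each genotype, but centring within each stage leaves the gap between the stages outside that fit.

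**Figure D4:**
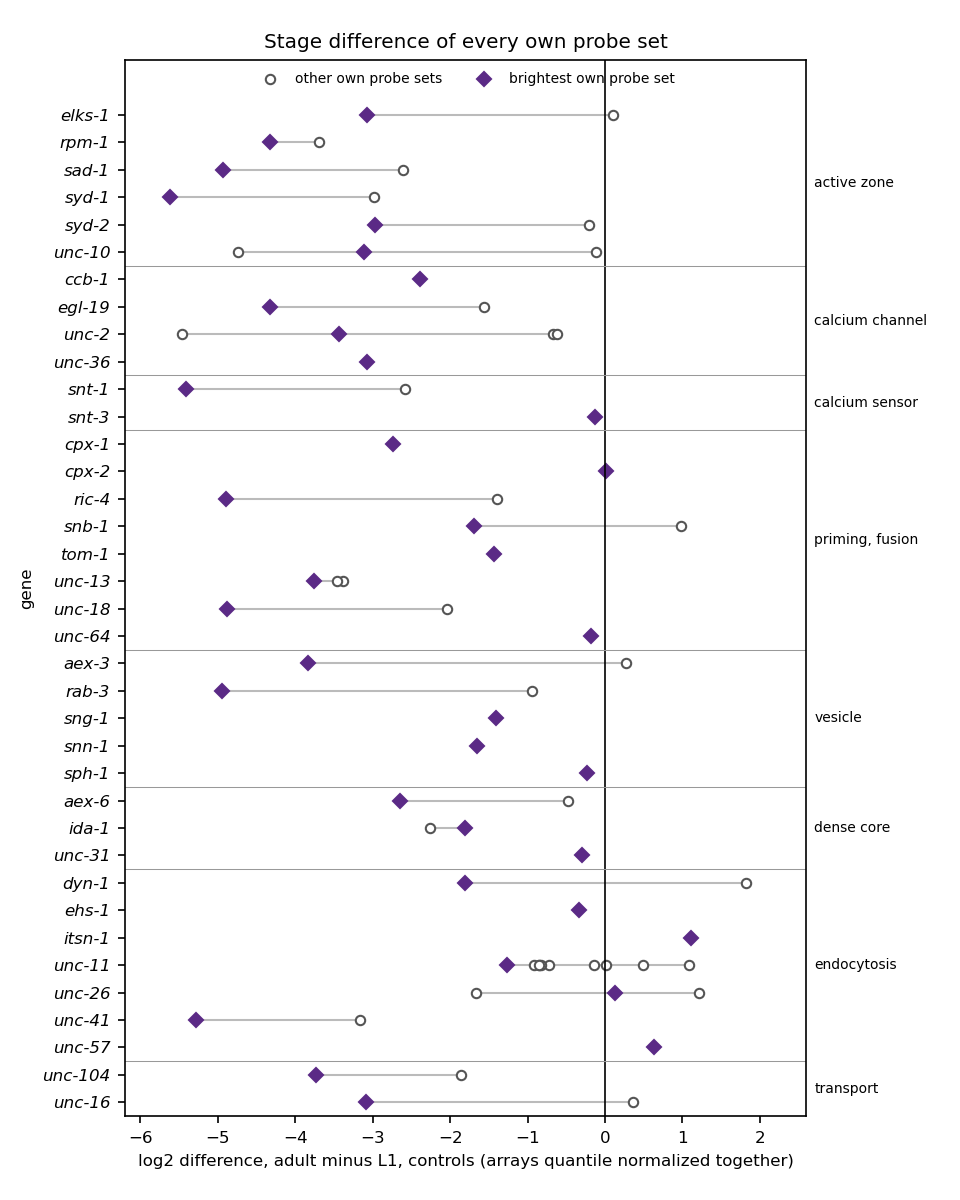
Log2 difference between adult and L1 controls (x axis, arrays normalized together) for every probe set of each synaptic gene (y axis, grouped by role), with filled diamonds for the brightest probe set and open circles for the others. Most diamonds lie left of 0, from -5.62 for syd-1 to 1.11 for itsn-1, and the line of dyn-1 runs from -1.81 to 1.82.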

How the data were processed

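For each of the 14 arrays the authors deposited log2 values per probe set. How they corrected, summarised and normalized the signals is not given in the sources used here. Per the labels' protocols, total RNA was taken up in Trizol, cleaned on a column and turned into biotinylated cRNA from 6 ug. Medians of the deposited values ran from 4.73 to 4.76 on L1 arrays and from 5.91 to 6.02 on adult arrays, so stages were compared after quantile normalization of all arrays. Of 22548 probe sets tested, 20766 had 1 gene in the platform annotation, 887 several and 895 none. Each gene was represented by its own probe set with the highest mean.

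One limma 3.58.1 fit (R 4.3.3, lmFit and eBayes) with a mean per group used all 14 arrays, with 10 residual and 4.18 prior degrees of freedom. P-values were two-sided and Benjamini-Hochberg adjusted over all tested probe sets, with a threshold of 0.05. The fit was tested on simulated data. Intervals are 95% intervals. Precision is limited by how many arrays there are, with a median standard error of 0.107 at L1 and 0.123 in adults. Same-numbered L1 arrays deviated together (correlations 0.423, 0.317, 0.188 and 0.236). Each was the highest for its mutant array, though L1 mutant 3 also reached 0.182 with control 2, and the labels state no pairing. In adults the same-numbered correlations were 0.437, 0.108 and 0.036. Adult mutant 2 reached 0.326 with control 3, and adult mutant 3 reached 0.286 with control 2, so the adult numbers do not show pairs. The replicate block used the numbers at both stages.

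Members and lists were chosen with earlier results of these data known. Named were members called between genotypes, the 4 with the smallest p in each genotype contrast, the smallest p in each role, the 4 largest stage changes each way, and the smallest p in each other list; further members are given by their estimates. Alternatives were replicate blocks, other scalings and variance settings, a filter on dim probe sets, other probe sets per gene, a quality covariate and leaving out each array. Another 2 choices of probe set were added after seeing the data. Promoter and protein sequences were not used here.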

Additional observations from a re-analysis of the deposited data

Results flagged for a closer look

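In 3 of the 74 L1 groups of synaptic gene values, 1 array stood far from the other three, by a gap test that chance passes in about 1 of 20 groups. For unc-13, the Munc13 priming factor, L1 mutant replicate 2 read 7.58 and the others 7.89 to 7.90. For unc-16, L1 control replicate 4 read 8.57 where the others read 8.88 to 8.93, and L1 mutant replicate 1 read 8.78 where the others read 8.94 to 8.97.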

How the results depend on the processing

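The count of synaptic genes higher at L1, 1 as reported, was 0 when only the L1 arrays were fitted and with the Gapdh covariate. The mean of all own probe sets and the dimmest own probe set also gave 0. For dyn-1 the dimmest was at the dim end of the L1 arrays. The count was also 0 with plain probe sets only. There dyn-1 has none and was not among the 27 genes measured, so that setting bears on no dyn-1 call. Leaving out each array in turn gave 0 to 1. With a replicate block the L1 count stayed at 1 (dyn-1, adjusted p = 0.00435 in limma with a fixed block), and the block changed no other call. A fixed block cannot be estimated between stages. In adults, array weights gave 1 lower gene, unc-64. The counts higher in adults, 2 in each genotype, depended on the setting. On the deposited values they were 10 in controls and 11 in mutants, beside 74% and 74.3% of all genes. Quantile normalization within each stage gave the same counts. Centred medians gave 6 and 4, beside 31.8% and 32% of all genes. The dimmest own probe set or the one brightest in adults gave 6 and 5. The count lower in adult controls, 30 as reported, was 23 on the deposited values. It was 23 with the dimmest own probe set and 25 with the one brightest in adults. For these choices of probe set no share over all genes was computed, for falls or for rises, so their counts have nothing beside them. Of 1363 values of single genes recomputed, 1333 stayed on their side of the threshold, uncalled ones within 1 standard error of the reported value. The others were 6 that lost a call (dyn-1 at L1), 1 that gained one (unc-64 in adults) and 23 uncalled values that moved further. Called values that reversed numbered 0, but stage values were recomputed there only for the genes with the largest stage changes. Over all 37 genes, the called direction of the stage difference turned with the scaling for 4 in controls and 5 in mutants. Beyond the settings' own construction the cause was not tested. The number of arrays leaves differences under about 0.5 log2 unresolved for several genes.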
